A study of Mus musculus with 107 samples.

Results

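LL/2, a mouse Lewis lung carcinoma line, was grown under the skin of female C57BL/6JCrl mice, and the RNA of whole tumors was sequenced on day 8 with or without lenvatinib (LEN). The comparison rests on 6 of the 107 tumors in the series. These are 3 LEN tumors, numbered 2, 3 and 4, and 3 untreated (NT) tumors, numbered 1, 2 and 3. Mice were 7 weeks old at transplantation, and dosing began when tumors were near 100 mm3 (day 1). Mice received LEN orally every day over 7 days at a dose of 10 mg/kg, and NT mice had no treatment. Another 3 LL/2 tumors (Base) were collected untreated at about 100 mm3 and are given here only as a reference level, with no test, because they differ from the day 8 tumors in size and time. The other 11 syngeneic models of the series each had 3 LEN and 3 NT tumors on day 8. LL/2 is 1 transplanted line and the host is an immunocompetent mouse, so host blood vessels, stroma and leukocytes are measured together with the cancer cells.

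LEN is a multikinase inhibitor of the VEGF receptors, FGF receptors, PDGFRα, KIT and RET. VEGF signaling keeps the endothelial cells of tumor vessels alive and sprouting, Notch signaling selects the tip cells that lead a sprout, and PDGF-B released by endothelium holds pericytes on the vessel wall. Tumor-associated macrophages engulf dead cells and take part in complement, lipid and antigen handling, whereas neutrophils are drawn into tissue by chemokines that act on the receptor CXCR2.

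Expression was given as TPM, a length-corrected share of all transcripts that sums to one total for each tumor, so sequencing depth is unknown and no counting interval can be given. Of 20 lung and epithelial markers, 5 (Nkx2-1, Scgb1a1, Sftpa1, Sftpc and Sftpd) were listed at 0 in all 6 tumors and Epcam did not exceed 0.04 TPM. The simple-epithelium keratins Krt8 and Krt18 were present at 61.4 to 89.7 TPM and 91.3 to 126 TPM. Among the other lung genes of the list, Napsa, an aspartic protease of alveolar cells, was at 2.27 to 4.16 TPM, the lineage factor Foxa2 was at 2.0 to 2.87 TPM, and Sftpb, which encodes surfactant protein B, did not exceed 0.26 TPM. Correlations of log2(TPM + 1) were 0.949 to 0.956 among NT tumors, 0.960 to 0.966 among LEN tumors and 0.952 to 0.962 between the groups, and no pair shared more than 2.32% of its non-zero values. Each tumor is a separate sample in the labels, and p-values from these 6 tumors alone measure the spread between them.

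Genes were compared on the log2(TPM + 1) scale with limma, with Benjamini-Hochberg adjustment over all genes tested and a threshold of 0.05. This scale understates the change of genes at low TPM. Of 15506 genes with a mean of at least 1 TPM in the 6 tumors, 22 passed (0.142%), of which 10 rose (0.0645%) and 12 fell (0.0774%). All 22 had groups that did not overlap. For comparison, 2.75% of all genes tested were above NT in every LEN tumor and 23.7% were below NT in every LEN tumor. The median change over all genes was -0.13, and 75.8% of genes had a change below 0. Protein-coding genes held 49.97% to 51.3% of the TPM in NT tumors and 47.3% to 48.7% in LEN tumors, whereas 9 abundant non-coding RNAs held 27.8% to 28.5% and 29.8% to 31.3%. The part of these RNAs in any single change was not tested. After rescaling each tumor by its upper quartile the median change was -0.01, and 14 genes rose and 11 fell. Higher genes then made up 56.0% of the calls, against 45.5% without rescaling.

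The number of calls depended on single tumors. It was 145 without NT tumor 2, 28 without NT tumor 3 and 15 without NT tumor 1. It was 2 without LEN tumor 2, 6 without LEN tumor 3 and 0 without LEN tumor 4, where 1951 genes had an unadjusted p under 0.05 in limma, against 2757 with all 6 tumors. A second fit placed all 72 day 8 tumors of the 12 models in 24 groups that share 1 estimate of the spread, and the same LL/2 difference was taken from it. That spread comes mostly from the 66 tumors of other models, so p-values of this fit do not measure the spread of LL/2 tumors alone. In it 57 genes rose (0.317%) and 202 fell (1.12%) of 18002, and 20 of the 22 genes were among them. Genes named here that did not pass in the 6 tumors are members of the score, inhibited receptors or the most abundant members of a list, and all others were chosen after their values were seen.

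**Figure D1:**
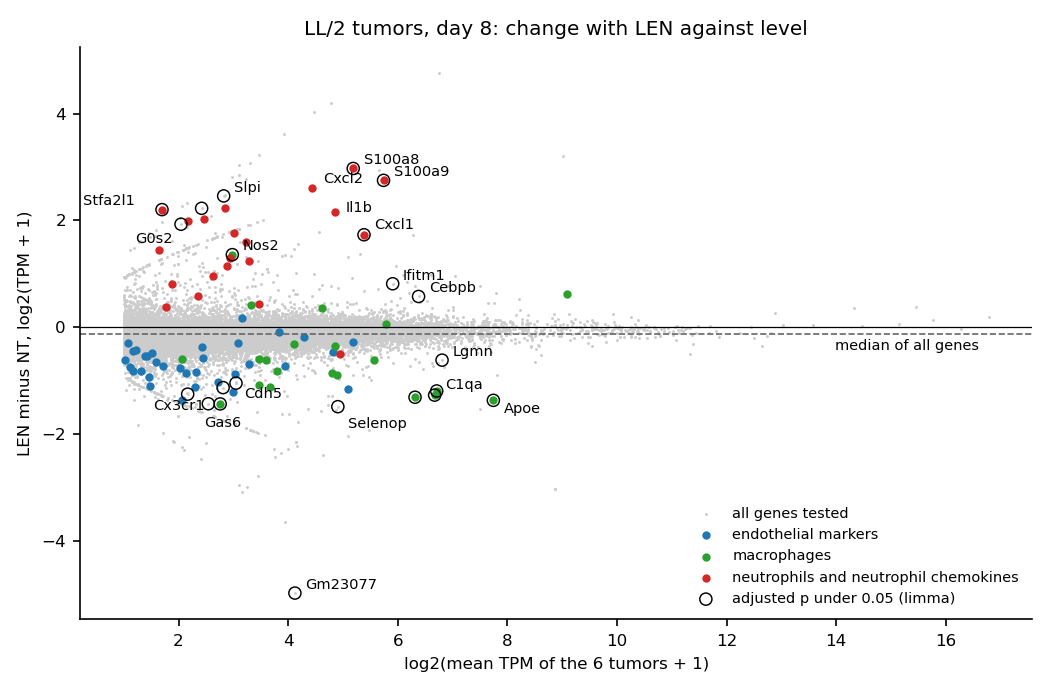
Change with LEN in LL/2 tumors against expression level. The x axis is log2(mean TPM of the 6 tumors + 1) and the y axis is LEN minus NT on the log2(TPM + 1) scale, with 1 point for each of 15506 genes. Open circles mark the 22 genes with an adjusted p under 0.05 in limma, and the dashed line is the median of all genes, -0.13. Neutrophil genes and their chemokines (red) lie mostly above 0, and endothelial markers (blue) and macrophage genes (green) mostly below.

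The genes that rose were led by neutrophil genes. Of 12 neutrophil markers tested, 3 rose (S100a8, S100a9 and Stfa2l1), beside 0.0645% of all genes, and 0 fell. In every LEN tumor 10 of the 12 were higher than in every NT tumor, beside 2.75% of all genes. Their median change was 1.52, beside -0.13 for all genes. Members such as Cxcr2 and Stfa2l1 reached the 1 TPM mean through the LEN tumors. With no minimum, the median over all 18 listed markers was 1.05, beside -0.07 for all genes, and 0 passed. The summed TPM of all 18 was 38.1 to 84.9 in NT tumors, 259 to 297 in LEN tumors and 50.1 to 116 in Base tumors. In bulk tumors, fewer cells of a type and less RNA per cell cannot be told apart, and the same holds for more cells and more RNA. In the fit of 72 tumors, 10 of 13 passed, all higher, beside 0.317% of all genes. Ly6g, Camp, Ngp, Ltf, Mmp8 and Cxcr1 were under the 1 TPM minimum. Without NT tumor 2 or NT tumor 3, 5 neutrophil markers passed, without NT tumor 1, 1 passed, and without any of the 3 LEN tumors 0 did.

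S100a8 and S100a9 encode the subunits of calprotectin, an abundant cytosolic protein of neutrophils. S100a8 (ENSMUSG00000056054, GRCm38 chr3:90668978-90670035) was at 4.94, 6.79 and 10.7 TPM in NT tumors 1, 2 and 3 and at 73.9, 60.9 and 55.3 TPM in LEN tumors 2, 3 and 4. Every LEN tumor was far above every NT tumor, and the mean rose 8.48-fold on the TPM scale (2.97 ± 0.24 (SE, n = 3 per group) on the log2 scale, limma adjusted p = 0.0191). Its Base tumors were at 7.69, 25.6 and 5.22 TPM, also below every LEN tumor. S100a9 was at 13.8, 7.43 and 19.7 TPM in NT tumors and 96.7, 86.2 and 90.9 TPM in LEN tumors, and rose by 2.75 ± 0.30 (limma adjusted p = 0.0412). NT tumor 2 had the lowest S100a9 of the 6.

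Other genes that rose did not share 1 list. Slpi, a secreted inhibitor of neutrophil elastase, was at 1.19, 0.45 and 2.16 TPM in NT tumors and 12.2, 10.6 and 9.81 TPM in LEN tumors (2.46 ± 0.28, limma adjusted p = 0.0412). G0s2, an inhibitor of the lipase ATGL, was at 1.15, 0.45 and 0.59 TPM in NT tumors and 5.61, 4.66 and 6.3 TPM in LEN tumors (1.93 ± 0.20, limma adjusted p = 0.0336). Groups were well separated for both, although NT levels lay near the 1 TPM minimum. Stfa2l1, a stefin of neutrophils, was at 0, 0 and 0.53 TPM in NT tumors and 3.84, 4.35 and 4.75 TPM in LEN tumors, and its near-identical paralogs make its reads uncertain. Nos2, the inducible nitric oxide synthase of activated myeloid cells, was at 2.86, 3.03 and 4.53 TPM in NT tumors and 9.89, 10.4 and 10.6 TPM in LEN tumors (1.36 ± 0.15, limma adjusted p = 0.0412). Cebpb, a transcription factor of emergency granulopoiesis and of the stress response, was at 62.8, 66.3 and 68.6 TPM in NT tumors and 104, 97.04 and 95.4 TPM in LEN tumors (0.58 ± 0.06, limma adjusted p = 0.0412). The rise of Cebpb was small but regular, since the lowest LEN tumor was well above the highest NT tumor. Ifitm1, a membrane protein of the interferon-induced family, was at 42.8, 41.3 and 43.3 TPM in NT tumors and 70.3, 72.4 and 84 TPM in LEN tumors. It passed in the 6 tumors (limma adjusted p = 0.0336) but not in the fit of 72 (adjusted p = 0.197). Gm16194, at 1.15, 0.41 and 1.06 TPM in NT tumors and 5.9, 10.7 and 6.94 TPM in LEN tumors, also rose and has no entry in the annotation used.

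The neutrophil genes Csf3r, Cxcr2, Il1r2 and Lcn2 did not pass in the 6 tumors but did in the fit of 72. Csf3r, the receptor for the granulocyte growth factor G-CSF, was at 5.06, 1.58 and 5.14 TPM in NT tumors and 12.5, 12.4 and 13.7 TPM in LEN tumors (limma adjusted p = 0.115 in 6 tumors and 0.000715 in 72). Cxcr2, the receptor that guides neutrophils to CXCL chemokines, was at 0.84, 0.28 and 0.96 TPM in NT tumors and 3.98, 3.95 and 2.71 TPM in LEN tumors (adjusted p = 0.0842 and 2.58e-05). Il1r2, a decoy receptor for IL-1, was at 4.18, 2.85 and 8.39 TPM in NT tumors and 12.3, 13.3 and 11.7 TPM in LEN tumors (adjusted p = 0.145 and 0.00689). Lcn2, a siderophore-binding granule protein, was at 0.69, 0.54 and 2.7 TPM in NT tumors and 8.65, 7.38 and 7.07 TPM in LEN tumors (adjusted p = 0.0924 and 0.00907). NT tumor 2 was the lowest of the 6 for all of these genes.

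Of 9 chemokines and cytokines that recruit and expand neutrophils and were tested, 1 rose (Cxcl1), 0 fell and 7 were higher in every LEN tumor than in every NT tumor (2.75% of all genes), with a median change of 1.73. Csf3 reached the 1 TPM minimum through the LEN tumors. With no minimum, the median over all 10 listed members was 1.51 and 0 passed. In the fit of 72 tumors 6 of 9 passed, all higher (0.317% of all genes). The summed TPM of all 10 listed members was 58.5 to 101 in NT tumors and 146 to 199 in LEN tumors. Without NT tumor 2, 2 passed, without NT tumor 3, 3 passed, and without NT tumor 1 or any LEN tumor 0 did.

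Cxcl1, a ligand of CXCR2, was at 16.8, 16.2 and 21.7 TPM in NT tumors and 75.99, 64.5 and 49.3 TPM in LEN tumors. The groups were well separated, and Cxcl1 rose 3.47-fold on the TPM scale (1.73 ± 0.18, limma adjusted p = 0.0336). Cxcl2, another CXCR2 ligand, was at 4.9, 1.85 and 11.4 TPM in NT tumors and 36.6, 35.6 and 33.8 TPM in LEN tumors (change 2.61 ± 0.48, limma adjusted p = 0.104 in 6 tumors and 6.73e-05 in 72). Cxcl3 was at 1.29, 0.19 and 4.22 TPM in NT tumors and 11.01, 11.02 and 9.3 TPM in LEN tumors (change 2.24 ± 0.49, adjusted p = 0.122 and 9.61e-05). The LEN tumors were alike for both genes, whereas NT tumors 2 and 3 were the lowest and the highest of their group. Cxcl5 was at 3.39, 2.42 and 4.65 TPM in NT tumors and 11.9, 9.32 and 8.48 TPM in LEN tumors. Csf3, which encodes G-CSF, was at 1.13, 0.19 and 1.13 TPM in NT tumors and 8.42, 4.37 and 5.71 TPM in LEN tumors, and its Base tumors did not exceed 0.54 TPM. Csf3 did not pass in the 6 tumors (limma adjusted p = 0.0832) but did in the fit of 72 (adjusted p = 1.16e-09). Il1b, a cytokine upstream of these chemokines, was at 12.8, 3.93 and 15.5 TPM in NT tumors and 46.2, 47.7 and 42.2 TPM in LEN tumors (change 2.15 ± 0.42, adjusted p = 0.11 and 0.00134). In the same list as these chemokines the platelet genes Pf4 and Ppbp overlapped between groups, with changes of -0.50 and 0.38, and Pf4 was the 1 member with a change below 0.

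Cxcl1, Cxcl2 and Cxcl3 are neighbours on chromosome 5, and their promoters are shown because the 3 genes were higher together in every LEN tumor. Each is given from 250 bases before to 50 bases after the RefSeq start site on the plus strand of GRCm38.p6, as chr5:90890995-90891294, chr5:90903649-90903948 and chr5:90785851-90786150. Capitals mark GGGAATTTCC, the 10 bases that begin 71 bases before the Cxcl1 start site. They match a form of the binding site of the inflammatory transcription factor NF-κB, were chosen after the values of the genes were seen, and were searched in the other promoters on both strands.
Cxcl1: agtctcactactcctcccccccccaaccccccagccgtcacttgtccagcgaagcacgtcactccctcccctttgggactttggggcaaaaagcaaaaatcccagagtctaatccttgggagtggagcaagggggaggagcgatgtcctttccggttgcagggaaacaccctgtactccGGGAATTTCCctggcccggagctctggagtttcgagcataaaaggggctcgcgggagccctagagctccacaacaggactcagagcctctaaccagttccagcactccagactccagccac
Cxcl2: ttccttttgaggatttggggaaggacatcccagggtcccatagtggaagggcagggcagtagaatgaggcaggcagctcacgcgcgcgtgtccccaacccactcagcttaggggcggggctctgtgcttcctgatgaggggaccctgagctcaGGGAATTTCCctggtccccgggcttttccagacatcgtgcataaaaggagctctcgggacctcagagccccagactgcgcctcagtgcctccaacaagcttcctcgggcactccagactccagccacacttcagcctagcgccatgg
Cxcl3: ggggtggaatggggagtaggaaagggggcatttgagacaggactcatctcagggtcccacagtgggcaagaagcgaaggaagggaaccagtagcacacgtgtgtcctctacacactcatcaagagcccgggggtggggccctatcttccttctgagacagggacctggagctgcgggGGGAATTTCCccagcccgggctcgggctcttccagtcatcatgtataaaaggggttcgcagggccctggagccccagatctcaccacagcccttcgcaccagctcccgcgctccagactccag
The same run began 97 bases before the start site in Cxcl2 and 73 in Cxcl3, and each promoter held it 1 time. Of 27025 promoters of this length in the RefSeq table, 24 held it (0.0888%), Cxcl1 included. The 3 genes are related by descent, so their matches are not separate events. Among the protein-coding genes that passed, 1 of 8 higher genes with an entry held a match (Cxcl1, from which the run was read) and 0 of 10 lower genes did. A match describes the sequence and no factor binding was measured.

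Thbs1, Ptgs2 and Nfkbia, chosen after their values were seen, were higher in every LEN tumor than in every NT tumor, as were 2.75% of all genes, and did not pass in the 6 tumors. Thbs1, an antiangiogenic matrix protein of platelets and myeloid cells, was at 33.9, 22.4 and 53.1 TPM in NT tumors and 117, 117 and 115 TPM in LEN tumors (change 1.73 ± 0.27, limma adjusted p = 0.0842 in 6 tumors and 6.73e-05 in 72). Ptgs2, which encodes the prostaglandin-forming enzyme COX-2, was at 14.1, 23 and 18.5 TPM in NT tumors and 59.4, 42.2 and 41.2 TPM in LEN tumors (adjusted p = 0.0832 and 0.00372). Nfkbia, an NF-κB target that encodes its inhibitor IκBα, was at 62.5, 48.2 and 64.1 TPM in NT tumors and 106, 91.4 and 99.5 TPM in LEN tumors (adjusted p = 0.0842 and 0.0295). The inflammatory monocyte list had 14 entries for 13 genes, as Itgam is listed under 2 gene IDs. Of the 14 entries 0 passed in the 6 tumors and 1 rose in the fit of 72 (0.317% of all genes). In every LEN tumor 5 were higher and 2 lower than in every NT tumor, beside 2.75% and 23.7% of all genes. Their median change was 0.33, and without NT tumor 2 it was 0.09 and 2 genes rose. Ly6c2, a marker of these cells, overlapped between groups at 14.8, 2.26 and 6.35 TPM and 10.8, 11.1 and 11.9 TPM, and NT tumor 1 had the highest value of the 6. The integrated stress response list was tested because Cebpb belongs to it, so that call was known beforehand. It had 1 of 26 genes higher (Cebpb), beside 0.0645% of all genes, 0 lower and a median change of 0.07. In the fit of 72 tumors 2 of 29 were higher (0.317% of all genes). The 6-tumor fit without any 1 tumor other than NT tumor 2 had 0 that passed.

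**Figure D2:**
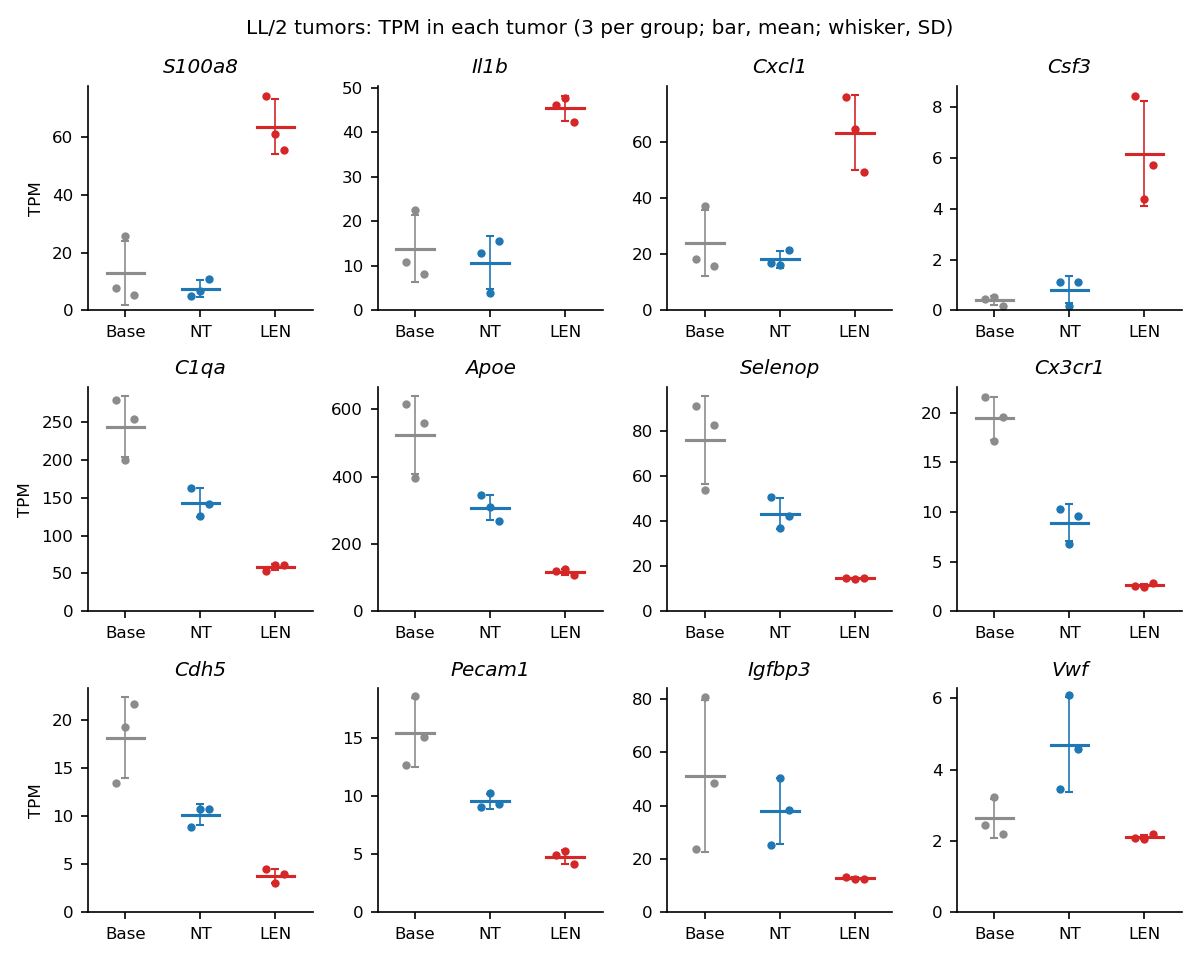
TPM of 12 genes in each LL/2 tumor. Each panel is 1 gene, the y axis is TPM from 0, points are the 3 Base, 3 NT and 3 LEN tumors, the bar is the mean and the whisker the SD. In every panel the LEN tumors lie wholly on 1 side of the NT tumors, above them for S100a8, Il1b, Cxcl1 and Csf3 and below them for the other 8 genes.

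Among the genes that fell, macrophage genes were the largest group. Of 21 macrophage genes tested, 5 fell (C1qa, C1qb, C1qc, Apoe and Cx3cr1) and 1 rose (Nos2, described above), beside 0.0774% and 0.0645% of all genes. In the fit of 72 tumors 8 were lower (1.12% of all genes) and 1 higher. Of the 21, 15 were lower in every LEN tumor than in every NT tumor, a share to be read against 23.7% of all genes, and the median change was -0.62 (-0.50 after upper-quartile rescaling). The summed TPM of all 24 listed macrophage genes was 1449 to 1529.7 in NT tumors, 1187 to 1209.7 in LEN tumors and 2529.7 to 2682 in Base tumors. That sum includes Spp1, the most abundant member, which was higher in every LEN tumor (given below). Without NT tumor 2, 10 fell and 2 rose. The number that fell was 4 without NT tumor 1, 3 without NT tumor 3, 0 without LEN tumor 2, 1 without LEN tumor 3 and 0 without LEN tumor 4.

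The 3 chains of the complement starter C1q are made in tissue mainly by macrophages, from adjacent genes on chromosome 4. C1qa (GRCm38 chr4:136895917-136898803) was at 163, 125 and 142 TPM in NT tumors and 53.5, 60.95 and 61.4 TPM in LEN tumors, and fell by 1.27 ± 0.11 on the log2 scale (limma adjusted p = 0.0204). C1qb was at 168, 126 and 141 TPM in NT tumors and 64.2, 59.5 and 63.6 TPM in LEN tumors (limma adjusted p = 0.0246), and C1qc (GRCm38 chr4:136889804-136893065) was at 125, 103 and 109.6 and 43.8, 46.7 and 43.4 TPM (adjusted p = 0.0123). All 3 chains stood at less than the lowest NT value in each LEN tumor, with NT means 2.45, 2.32 and 2.52 times the LEN means. Their Base tumors were higher still, C1qa at 279, 199 and 253 TPM. Apoe, the lipid carrier of lipid-laden macrophages, was at 345, 311 and 269 TPM in NT tumors and 121, 126 and 108 TPM in LEN tumors (-1.37 ± 0.10, limma adjusted p = 0.0147). Cx3cr1, the fractalkine receptor of resident and patrolling phagocytes, was at 10.3, 6.81 and 9.62 TPM in NT tumors and 2.57, 2.48 and 2.82 TPM in LEN tumors (-1.44 ± 0.16, limma adjusted p = 0.0412).

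Other genes that fell have known roles in phagocytes, although they were not on the macrophage list. Selenop, a secreted selenium carrier, was at 50.5, 36.98 and 42.5 TPM in NT tumors and 14.8, 14.3 and 14.9 TPM in LEN tumors (-1.49 ± 0.11, limma adjusted p = 0.0147). Gas6, a bridge between dead cells and the receptors AXL and MERTK, was at 7.65, 7.17 and 7.71 TPM in NT tumors and 2.03, 2.14 and 2.28 TPM in LEN tumors (-1.43 ± 0.10, limma adjusted p = 0.0147). The LEN tumors varied little for either gene, and no value overlapped. Lgmn, a lysosomal protease, was at 143, 127 and 134 TPM in NT tumors and 90.8, 84.7 and 86.8 TPM in LEN tumors (-0.62 ± 0.06, limma adjusted p = 0.035). Lair1, an inhibitory collagen receptor of leukocytes, fell by 1.13 ± 0.11 (limma adjusted p = 0.029), and Fcna, a ficolin that activates complement, fell by 1.25 ± 0.14 (adjusted p = 0.0412).

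Other macrophage genes did not pass in the 6 tumors. Adgre1, which encodes F4/80, was at 21.3, 10.6 and 17.99 TPM in NT tumors and 7.18, 6.69 and 6.54 TPM in LEN tumors (limma adjusted p = 0.115 in 6 tumors and 0.00803 in 72). Trem2, a lipid receptor of tumor macrophages, was at 14.1, 15.2 and 12.7 TPM in NT tumors and 5.1, 7.22 and 5.93 TPM in LEN tumors (adjusted p = 0.0525 and 0.00204). Csf1r, the receptor on which macrophages depend, was at 43.2, 25.4 and 36.4 TPM in NT tumors and 19.4, 17.5 and 18.5 TPM in LEN tumors (adjusted p = 0.122 and 0.027). None of these 3 genes overlapped between groups. Cd68, a lysosomal marker of all macrophages, passed in neither fit at 60.2, 51.1 and 57.8 TPM in NT tumors and 37.1, 34.1 and 37.8 TPM in LEN tumors (adjusted p = 0.0661 and 0.289). Cd14, a lipopolysaccharide co-receptor, overlapped between groups, with a change of 0.36. Spp1, the matrix cytokine osteopontin, was the most abundant macrophage gene and was higher in every LEN tumor, at 333, 537 and 427 TPM in NT tumors and 658, 638 and 672 TPM in LEN tumors (adjusted p = 0.151 and 0.0871). Fcrls, an Fc receptor-like gene of resident macrophages, was at 27.5, 14.4 and 23.7 TPM in NT tumors and 4.61, 3.12 and 2.04 TPM in LEN tumors (change -2.42 ± 0.29, adjusted p = 0.0525 and 0.00135).

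**Figure D3:**
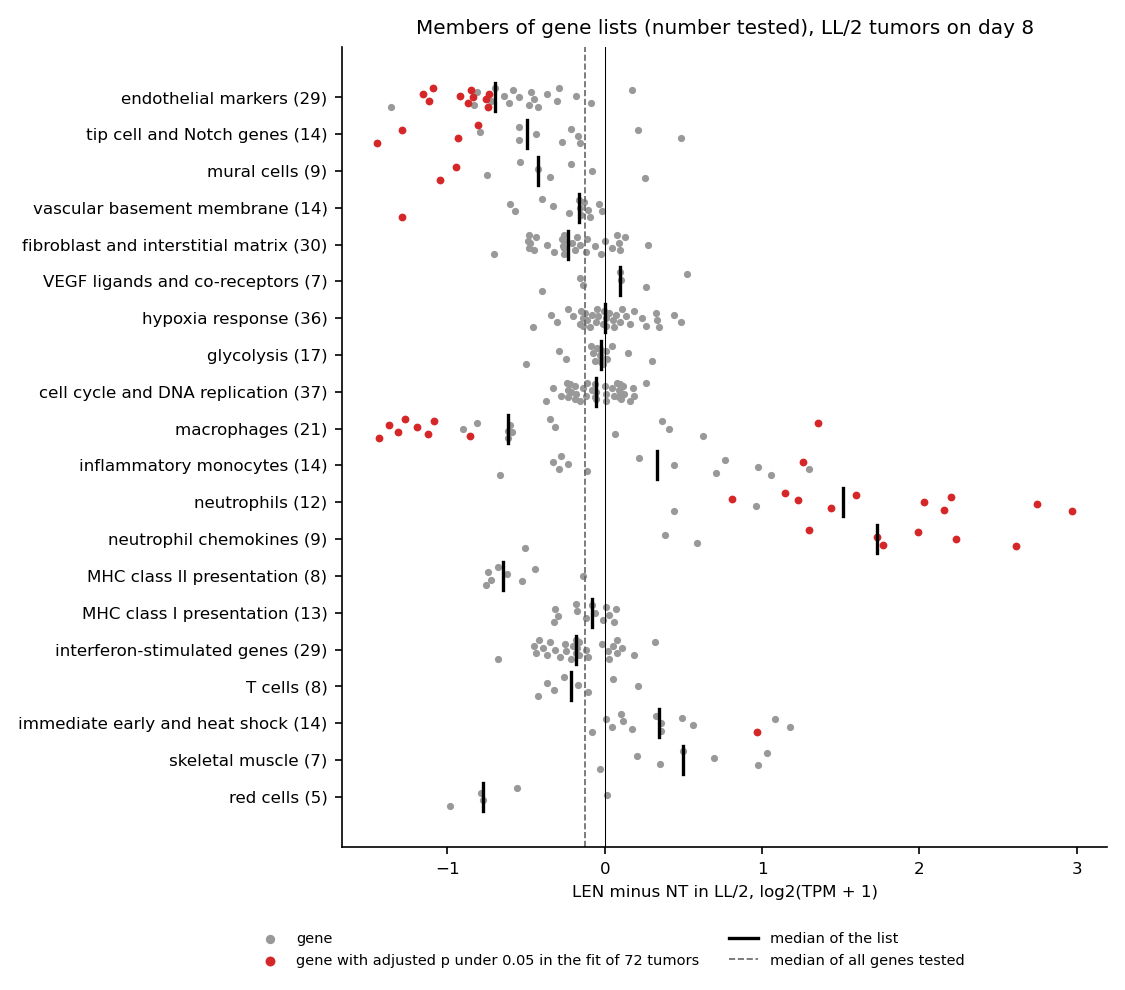
Change with LEN of the members of 20 gene lists in LL/2. The x axis is LEN minus NT on the log2(TPM + 1) scale, each point is a gene, red points passed in the fit of 72 tumors, the black bar is the median of the list and the dashed line the median of all genes (-0.13). Neutrophil and neutrophil chemokine lists lie to the right, with medians of 1.52 and 1.73 over the genes tested. Endothelial and macrophage lists lie to the left, with medians of -0.70 and -0.62.

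The MVD gene score, the study's RNA measure of microvessel density, averages the log expression of Cdh5, Eng, Kdr, Pcdh12, Sparcl1 and Tek. The log base and pseudocount of the study are not given in the sources used here, and log2(TPM + 1) was used. It was 2.59, 2.55 and 2.57 in NT tumors and 1.87, 1.84 and 1.88 in LEN tumors, and Base tumors were at 2.88, 3.23 and 3.09. The score fell by 0.704 ± 0.103 (SE), with p = 0.00028 in limma as 1 unadjusted value and p = 0.1 in a two-sided exact permutation test, the smallest that 3 tumors against 3 allow. The groups were far apart beside their own spread. With a pseudocount of 0.1 the difference was -1.11. The study drew the score from known endothelial markers (Kdr, Cdh5 and Tek) and from genes correlated with vessel staining across untreated tumors of about 100 mm3, the size of the Base tumors, so the Base level is not independent of that choice. Within the score, Cdh5, the VE-cadherin of endothelial junctions, was at 8.91, 10.8 and 10.8 TPM in NT tumors and 4.48, 3.02 and 3.97 TPM in LEN tumors (change -1.22 ± 0.15, adjusted p = 0.0525 in 6 tumors and 0.000482 in 72). Sparcl1, a matricellular protein of vessels, was at 6.9, 9.45 and 7.41 TPM in NT tumors and 3.31, 3.24 and 3.46 TPM in LEN tumors (adjusted p = 0.0569 and 0.00204). Pcdh12 and Tek were under the 1 TPM minimum in the 6 tumors, Pcdh12 at 1.41, 1.03 and 1.14 TPM and 0.30, 0.53 and 0.24 TPM (adjusted p = 0.0104 in limma's fit of 72 tumors) and Tek at 0.52, 0.63 and 0.68 TPM and 0.20, 0.15 and 0.16 TPM. Eng, a TGF-β co-receptor that is also made by other stromal cells, differed from the rest of the score. Its groups overlapped, at 47.6, 33.3 and 36.2 TPM in NT tumors and 27.7, 35.4 and 32.1 TPM in LEN tumors (limma adjusted p = 0.363).

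Endothelial markers as a list were lower without a gene that passed in the 6 tumors. Of 29 tested, 0 passed in either direction, 23 had a change below 0 at an unadjusted p under 0.05, and 24 were lower in every LEN tumor than in every NT tumor, against 23.7% of all genes. Their median change was -0.70 (-0.57 after upper-quartile rescaling). Members such as Emcn reached the 1 TPM mean through the NT tumors. With no minimum, the median over all 41 listed markers was -0.54, beside -0.07 for all genes. The summed TPM of all 41 was 223 to 246 in NT tumors, 138 to 144 in LEN tumors and 371 to 414 in Base tumors. In the fit of 72 tumors 10 of 37 passed, all lower (1.12% of all genes), and without NT tumor 2 in the 6-tumor fit 3 passed, all lower. The study's own wider list of endothelial genes, drawn from single cells of Hepa 1-6 tumors, had 264 genes tested. Of these, 1 fell (Mcam), beside 0.0774% of all genes. Another count, 120, were lower in every LEN tumor than in every NT tumor, beside 23.7% of all genes. The median change of this wider list was -0.23 (-0.11 after upper-quartile rescaling), beside -0.13 for all genes (-0.01). Of its 328 genes in the fit of 72 tumors, 30 were lower and 1 higher, beside 1.12% and 0.317% of all genes. Pecam1, which encodes CD31, was at 9.06, 10.2 and 9.27 TPM in NT tumors and 4.91, 5.31 and 4.12 TPM in LEN tumors (change -0.87 ± 0.11, adjusted p = 0.0592 and 0.035). Tie1, an orphan receptor of endothelium, was at 2.45, 2.95 and 2.42 TPM in NT tumors and 1.01, 1.01 and 0.69 TPM in LEN tumors (adjusted p = 0.101 and 0.00648). Emcn, a sialomucin of capillaries and veins, was at 2.33, 2.75 and 3.36 TPM in NT tumors and 0.67, 0.59 and 1.11 TPM in LEN tumors (adjusted p = 0.101 and 0.00755). LEN values were below every NT value for all 3 genes, at levels near the 1 TPM minimum for Tie1 and Emcn. Vwf, the von Willebrand factor, was at 3.46, 6.09 and 4.57 TPM in NT tumors and 2.08, 2.07 and 2.19 TPM in LEN tumors (adjusted p = 0.122 and 0.0423), with Base tumors at 2.45, 3.25 and 2.2 TPM. Stab1, a scavenger receptor of sinusoidal endothelium that macrophages also make, was at 54.8, 35.5 and 47.2 TPM in NT tumors and 24.2, 17.9 and 17.8 TPM in LEN tumors (adjusted p = 0.0853 and 0.00187). Aqp1, a water channel that is not confined to endothelium, overlapped between groups at 17.2, 19.4 and 22.5 TPM and 16.8, 17.7 and 17.02 TPM.

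Of the receptors that LEN inhibits, 5 of 10 reached 1 TPM and 0 passed in the 6 tumors. Kdr, which encodes VEGFR2, was at 2.44, 1.84 and 2.31 TPM in NT tumors and 1.23, 0.95 and 1.4 TPM in LEN tumors (change -0.54, limma adjusted p = 0.187 in 6 tumors and 0.116 in 72). Flt1, which encodes VEGFR1, was at 6.93, 10.6 and 7.15 TPM in NT tumors and 6.55, 6.21 and 6.01 TPM in LEN tumors (adjusted p = 0.334). Kit, a receptor of mast cells, was at 1.92, 1.72 and 3.39 TPM in NT tumors and 1.14, 0.87 and 1.08 TPM in LEN tumors (adjusted p = 0.201). LEN tumors were lower than NT tumors in each case, with groups separated by less than 1 TPM. Pdgfra, a fibroblast receptor, was at 50.5, 50.3 and 46.4 TPM in NT tumors and 40.5, 41.5 and 40.04 TPM in LEN tumors (adjusted p = 0.138). Fgfr1 was the most abundant of these receptors and overlapped between groups, at 176, 255 and 196 TPM and 179, 169.6 and 159 TPM. Flt4, the VEGFR3 of lymphatic and tip cells, was under the minimum at 0.64, 0.92 and 0.96 TPM in NT tumors and 0.20, 0.21 and 0.17 TPM in LEN tumors, and passed in the fit of 72 tumors (adjusted p = 0.00978). Fgfr2, Fgfr3, Fgfr4 and Ret did not exceed 0.73 TPM in any of the 6 tumors. The VEGF ligands and co-receptors (Nrp1 and Nrp2 among them) had 0 of 7 genes that passed and a median change of 0.10. Vegfa overlapped between groups at 39.9, 64.9 and 45.3 TPM and 60.5, 58.6 and 57.5 TPM.

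Of the tip cell and Notch genes, 0 of 14 passed in the 6 tumors and 5 of 18 in the fit of 72, all lower (1.12% of all genes). In the 6 tumors 9 of the 14 were lower in every LEN tumor than in every NT tumor, beside 23.7% of all genes. Igfbp3, an insulin-like growth factor binding protein of tumor endothelium, was at 25.4, 50.4 and 38.4 TPM in NT tumors and 13.2, 12.5 and 12.6 TPM in LEN tumors (change -1.45 ± 0.22, limma adjusted p = 0.0832 in 6 tumors and 2.86e-07 in 72). The NT tumors varied widely while the LEN tumors lay within 1 TPM of each other. Nid2, a basement membrane nidogen, was at 2.7, 5.46 and 4.98 TPM in NT tumors and 1.36, 1.18 and 0.91 TPM in LEN tumors (adjusted p = 0.105 and 6.73e-05). Dll4, the Notch ligand of tip cells, was at 1.97, 2.56 and 2.69 TPM in NT tumors and 0.81, 0.94 and 1.07 TPM in LEN tumors (adjusted p = 0.115 and 0.0196). Pdgfb, the endothelial signal to pericytes, was at 7.93, 7.24 and 8.87 TPM in NT tumors and 4.01, 2.93 and 4.33 TPM in LEN tumors (adjusted p = 0.0842 and 0.00134). Groups did not overlap for these 4 genes. Adm, a peptide induced by low oxygen, overlapped at 35.8, 75.4 and 37.9 TPM in NT tumors and 76.96, 59.7 and 62 TPM in LEN tumors.

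On the vessel wall, 1 of 9 mural cell genes fell in the 6 tumors (0.0774% of all genes) and 2 of 16 in the fit of 72 (1.12%). The count was 2 without NT tumor 2, 1 without NT tumor 1 and 0 without NT tumor 3 or any LEN tumor. Mcam, an adhesion molecule of pericytes and endothelium (CD146), was at 9.35, 10.7 and 10.4 TPM in NT tumors and 4.65, 4.29 and 4.23 TPM in LEN tumors (-1.05 ± 0.10, limma adjusted p = 0.0246). Rgs5, a pericyte regulator of G-protein signaling, was at 5.89, 5.02 and 6.02 TPM in NT tumors and 2.25, 2.37 and 2.73 TPM in LEN tumors (adjusted p = 0.0592 in 6 tumors and 0.0404 in 72). Neither gene overlapped between groups. Acta2, the actin of smooth muscle and myofibroblasts, overlapped at 7.4, 5.9 and 7.52 TPM in NT tumors and 5.89, 4.98 and 6.7 TPM in LEN tumors, while Base tumors were at 29.2, 29.96 and 31.4 TPM. Of 14 vascular basement membrane genes 0 passed in the 6 tumors and 1 (Nid2) in the fit of 72, with a median change of -0.16. The laminin gene Lamb1 was at 274, 256 and 259.9 TPM in NT tumors and 230.3, 242 and 238 TPM in LEN tumors. Of 30 fibroblast and interstitial matrix genes 0 passed in either fit, with a median of -0.23, and the collagen gene Col3a1 overlapped at 1081, 1357 and 967 TPM and 1012, 1000.5 and 942 TPM. Of 19 metalloproteinases and inhibitors 0 passed in either fit, and without NT tumor 2, 1 rose and 1 fell, and without NT tumor 3, 1 rose. Mmp3, a stromelysin, was at 135, 199 and 186 TPM in NT tumors and 279, 269 and 257 TPM in LEN tumors, and Mmp14, a membrane-bound metalloproteinase, was at 219.7, 240.3 and 222 TPM and 177, 179 and 180.3 TPM, so these 2 abundant proteases were separated in opposite directions (limma adjusted p = 0.124 and 0.095).

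The hypoxia, glycolysis and cell cycle lists had no member that passed in the 6 tumors or in the fit of 72. The hypoxia list (36 genes) had a median change of 0.13 after upper-quartile rescaling and near 0 without it, with 18 genes above 0 and 18 below. Slc2a1, the glucose transporter GLUT1, overlapped at 71.4, 169.6 and 88.9 TPM in NT tumors and 153, 112 and 125 TPM in LEN tumors, with NT tumor 2 the highest of the 6. The glycolysis list (17 genes) had a median of -0.02 and the cell cycle list (37 genes) a median of -0.06. Without NT tumor 2 the medians were 0.22 for hypoxia, 0.11 for glycolysis and -0.23 for the cell cycle, where 1 gene fell, and without NT tumor 1 they were -0.08, -0.12 and 0.08. Top2a, a topoisomerase of dividing cells, was at 156, 81.9 and 120.3 TPM in NT tumors and 109, 112 and 113 TPM in LEN tumors. NT tumor 2 was the lowest and NT tumor 1 the highest for Top2a. Of 18 p53 target genes 0 passed in the 6 tumors, and 1 of 20 was lower in the fit of 72 (1.12% of all genes). It was Sesn1, a stress-induced sestrin, at 10.9, 10.01 and 9.77 TPM in NT tumors and 7.02, 6.57 and 6.22 TPM in LEN tumors (limma adjusted p = 0.0875 in 6 tumors and 0.0350 in 72). Cdkn1a, which encodes the cell cycle inhibitor p21, was at 109.9, 112 and 113 TPM in NT tumors and 136, 152 and 146 TPM in LEN tumors (limma adjusted p = 0.0947).

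Genes of antigen presentation and lymphocytes likewise had 0 members that passed in the 6 tumors. The MHC class II list (8 genes) had a median of -0.65, with summed TPM of 294 to 587 in NT tumors and 211 to 296 in LEN tumors. The ranges overlapped through NT tumor 2. The median was -0.36 without NT tumor 1 and -0.91 without NT tumor 2, where 1 gene fell. Ctss, the protease that prepares class II for peptide loading, did not overlap, at 168, 123 and 139 TPM in NT tumors and 88.7, 77.7 and 85.3 TPM in LEN tumors (limma adjusted p = 0.0842). The 29 interferon-stimulated genes summed to 630 TPM in NT tumor 1, 219 in NT tumor 2 and 344 in NT tumor 3, so the spread among NT tumors exceeded the range of the LEN tumors, 315 to 377. The MHC class I list (13 genes) had a median of -0.08, which ranged from -0.28 to 0.12 when 1 tumor was left out. Only 8 of 24 T cell genes reached 1 TPM, with a median of -0.22, and 7 of 20 cytotoxic and NK cell genes did, with a median of 0.06. When 1 tumor was left out these medians ranged from -0.40 without NT tumor 2 to 0.0045 without NT tumor 1 for T cells, and from -0.22 to 0.35 without the same tumors for cytotoxic and NK cells. Most lymphocyte genes were too low in TPM to be tested.

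Markers of tissue outside the tumor and of handling were examined beside these results. The immediate early and heat shock list (14 genes) had a median of 0.34 and 8 genes higher in every LEN tumor (2.75% of all genes), and its summed TPM was 753 to 766 in NT tumors and 927 to 991 in LEN tumors. In that list 0 genes passed in the 6 tumors and 1 was higher in the fit of 72 (0.317% of all genes). It was Ier3, an early response gene, at 68.2, 114 and 84.3 TPM in NT tumors and 217, 148 and 154 TPM in LEN tumors (limma adjusted p = 0.125 and 0.0294). The skeletal muscle list (7 of 15 genes above the minimum) summed to 13.3 to 19.9 TPM in NT tumors and 24.1 to 31.7 TPM in LEN tumors, while its defining myosins Myh1, Myh2 and Myh4 were under the minimum. The part of these markers in the changes above was not tested. Red cell genes overlapped, with 49.1 to 330.2 TPM in NT tumors and 60.1 to 90.5 TPM in LEN tumors, and NT tumor 2 held the highest globin values. A small nucleolar RNA, Gm23077, was called lower in the 6 tumors because it was at 25.3, 51.6 and 21.7 TPM in NT tumors and listed at 0 in every LEN tumor. It was also listed at 0 in 2 of 3 Base tumors and did not pass in the fit of 72 (adjusted p = 0.195).

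To ask whether the response in LL/2 differed from that of other models, the LL/2 change was compared with the mean change of the other 11 models in the fit of 72 tumors. Of 18002 genes, 26 were changed more positively in LL/2 (0.144%) and 220 more negatively (1.22%), and after upper-quartile rescaling the split was 162 and 87. Of the 22 genes, 11 differed from the other models, beside 1.37% of all genes. The 22 were selected on the same LL/2 change that enters this contrast, so the count is no separate support. A second contrast set LL/2 against KLN205, the other lung tumor model, which is grown in DBA/2NCrl mice. In it 76 genes differed (0.422%), 25 more positively and 51 more negatively in LL/2, against 200 and 91 after rescaling, and 2 of the 22 genes did. Both contrasts use the same LL/2 tumors, so they are not independent of each other or of the choice of the 22 genes.

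Neutrophil chemokines and their regulators stood out for LL/2. Csf3 changed by 1.99 in LL/2 against a mean of 0.15 in the other models, where the highest was 0.96, a difference of 1.84 ± 0.20 (limma adjusted p = 6.51e-08). Cxcl1 changed by 1.73 in LL/2 against a mean of -0.14 (difference 1.87 ± 0.28, adjusted p = 0.000105), and it was higher in LEN tumors in 4 of 12 models. Cxcl2 differed by 2.25 ± 0.42 (adjusted p = 0.00276). LL/2 had the highest change of the 12 models for all 3 genes, as it did for Cxcl3, Cxcl5, Il1b, S100a8, Slpi and Thbs1. Thbs1 changed by 1.73 in LL/2 against a mean of 0.03 (difference 1.70 ± 0.28, adjusted p = 0.000393). In the neutrophil list 5 of 13 genes differed from the other models, all more positive in LL/2 (0.144% of all genes), and in the neutrophil chemokine list 5 of 9. S100a9 was also highest in LL/2 but its difference missed the threshold (2.02 ± 0.58, adjusted p = 0.0588), and it was higher in LEN tumors in 11 of 12 models. Against KLN205, Csf3 (1.65 ± 0.28, adjusted p = 0.000802), Thbs1 (1.86 ± 0.38, adjusted p = 0.0131), Cxcl1, Cxcl2, Il1b, Il1r2, Trem1 and Stfa2l1 also changed more positively in LL/2. In KLN205 itself Il1b changed by -0.38 and Cxcl1 by 0.12.

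Macrophage genes differed in the other direction. Apoe changed by -1.37 in LL/2 against a mean of -0.23 in the other models, which ranged from -1.92 to 1.28 (difference -1.14 ± 0.27, limma adjusted p = 0.0181). C1qa changed by -1.27 against a mean of -0.31 (difference -0.97 ± 0.24, adjusted p = 0.0253), and its range over the other models was -1.62 to 1.65. Trem2 had its lowest change of the 12 models in LL/2 (difference -0.99 ± 0.22, adjusted p = 0.0149). In the macrophage list 5 of 21 genes differed from the other models, all more negative in LL/2 (1.22% of all genes). Selenop (-0.80 ± 0.28, adjusted p = 0.134) and Cx3cr1 (-0.50 ± 0.33, adjusted p = 0.479) did not pass. None of these macrophage genes passed against KLN205, where C1qa changed by -0.83 and Apoe by -0.95, but Spp1 did (1.27 ± 0.27, adjusted p = 0.0165). Other genes with the most negative differences were Cma1, a mast cell chymase (-1.78), C4b, a complement component (-1.46), and Pltp, a phospholipid transfer protein (-1.25). Gm21860 and Gm21748 had identical values in every tumor (-1.61 each), so they cannot be told apart and are uncertain.

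**Figure D4:**
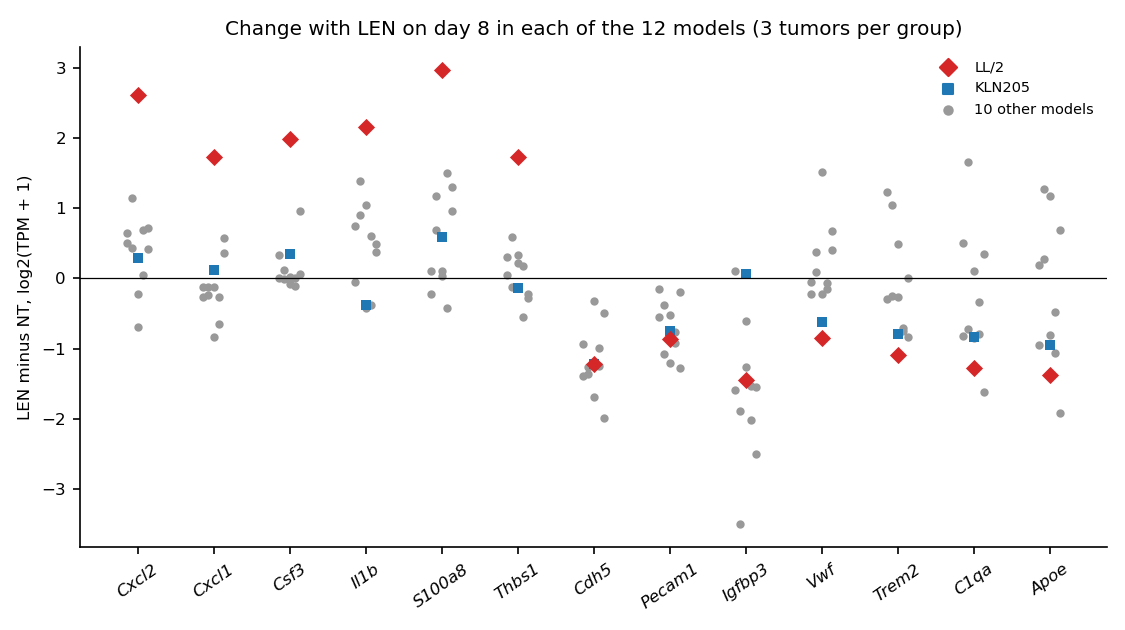
Change with LEN in each of the 12 models for 13 genes. The y axis is LEN minus NT on the log2(TPM + 1) scale from 3 tumors per group, red diamonds are LL/2, blue squares KLN205 and grey points the 10 other models. LL/2 is the highest point for Cxcl2, Cxcl1, Csf3, Il1b, S100a8 and Thbs1, and lies among the other models for Cdh5, Pecam1 and Igfbp3.

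For vascular genes, the score did not differ detectably between LL/2 and the other models, whereas single genes did. The change of the MVD gene score in LL/2 minus the mean of the others was -0.0558 ± 0.160, and minus KLN205 it was -0.117 ± 0.217, so both differences were smaller than their SE. Cdh5 differed from the others by -0.05 ± 0.22 and Pecam1 by -0.16 ± 0.24, and both were lower in LEN tumors in all 12 models. Among the 37 endothelial markers tested there the median difference from the others was -0.02. Of them, 1 differed and was more negative in LL/2 (1.22% of all genes). It was Vwf (-1.01 ± 0.24, limma adjusted p = 0.0207), whose mean change in the other models was 0.16. Pdgfb also changed more negatively in LL/2 than the mean of the others, -0.12 (-0.81 ± 0.18, adjusted p = 0.0149). Against KLN205, Igfbp3 (-1.51 ± 0.24, adjusted p = 0.000449) and Sparcl1 (-1.29 ± 0.29, adjusted p = 0.0223) changed more negatively in LL/2, and Cldn5, a tight junction protein, changed less (1.21 ± 0.28, adjusted p = 0.0281), having changed by -0.64 in LL/2 and -1.86 in KLN205.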

How the data were processed

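Per the labels and the study's methods, RNA of LL/2 tumors was purified with a Maxwell RSC simplyRNA Tissue Kit, depleted of ribosomal RNA and sequenced. Reads were demultiplexed with bcl2fastq, trimmed with Trimmomatic 0.36, mapped to mm10/GRCm38 with STAR 2.5.2b and quantified with RSEM 1.2.31. The authors deposited TPM for 50686 genes in 107 tumors, 1 column per tumor, and every column used was matched to a tumor by its name. TPM keeps no depth, so counting precision is unknown, and no count test was possible.

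LEN and NT were compared on log2(TPM + 1) with limma 3.58.1 in R 4.3.3 (lmFit, eBayes with a mean-variance trend, two-sided), after genes averaging below 1 TPM in the tumors fitted had been set aside, with Benjamini-Hochberg adjustment over all genes left. The LL/2 change was compared with the mean of the other 11 models and with KLN205 as contrasts in a fit of 72 day 8 tumors in 24 groups. The MVD gene score was added as a row of each fit. Gene types and positions came from GENCODE M21 (50376 genes matched) and promoters from RefSeq (GRCm38.p6). The fits were tested on simulated data before use. Tables and figures were made with Python 3.11.15, pandas 2.3.3 and matplotlib 3.10.9.

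Genes named are the score genes, the receptors LEN inhibits, up to 6 members of each list that passed or otherwise up to 3 of its most abundant members, the 15 protein-coding genes with the largest rise and fall that passed, the 8 with the largest difference from the other models in each direction, and markers of other cells or RNA quality that moved with the groups. Not all of them are printed, and genes outside this rule were chosen after their values were seen. The comparison, its members and the gene lists were chosen with earlier results of these data known. The results were recomputed with 0.1 as pseudocount, without the TPM minimum, with a TPM minimum of 5, after upper-quartile or protein-coding rescaling, without the trend, with a replicate block, in the fit of 72 tumors, without each LL/2 tumor, and for the score with the two-group test that the study used.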

Additional observations from a re-analysis of the deposited data

Results flagged for a closer look

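Results are given here when the change with LEN in LL/2 differed from the mean change in the other 11 models, or from the change in KLN205, with an adjusted p under 0.05 in limma's fit of 72 tumors. The genes were taken among those named above, so their number is not a rate. Without 1 LL/2 tumor, 12 to 20 of the 28 genes given against the other models and 5 to 12 of the 12 given against KLN205 still passed, the fewest without LEN tumor 4 and LEN tumor 2. All differences are LL/2 minus the comparison on the log2(TPM + 1) scale, and no explanation was tested.

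Against the other 11 models, the change in LL/2 was more positive for S100a8 (2.44), Cxcl2 (2.25), Cxcl3 (2.01), Gm16194 (1.90), Cxcl1 (1.87), Stfa2l1 (1.87), Csf3 (1.84), Il1b (1.76), Slpi (1.74), Thbs1 (1.70), G0s2 (1.43), Csf3r (1.34), Cxcl5 (1.34) and Cxcr2 (1.06). Of these, S100a8, Cxcl1, Stfa2l1, Slpi, G0s2 and Gm16194 also rose in the 6 LL/2 tumors alone.

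It was more negative for Cma1 (-1.78), Gm21860 and Gm21748 (-1.61 each, from identical values), C4b (-1.46), Pltp (-1.25), Apoe (-1.14), Vwf (-1.01), Trem2 (-0.99), C1qa (-0.97), Gas6 (-0.96), C1qc (-0.95), C1qb (-0.89), Pdgfb (-0.81) and Foxa2 (-0.30). Apoe, Gas6 and the C1q genes also fell in the 6 LL/2 tumors alone. Cma1, C4b, Pltp and Foxa2 passed in neither fit of the LL/2 change itself, and their mean change in the other models was above 0 (0.28, 0.51, 0.35 and 0.27).

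Against KLN205, the change in LL/2 was more positive for Il1b (2.53), Cxcl2 (2.33), Stfa2l1 (2.26), Il1r2 (1.98), Thbs1 (1.86), Csf3 (1.65), Cxcl1 (1.61), Spp1 (1.27), Cldn5 (1.21) and Trem1 (1.00), and more negative for Igfbp3 (-1.51) and Sparcl1 (-1.29). Cldn5 is the case where KLN205 moved most, by -1.86 against -0.64 in LL/2.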

How the results depend on the processing

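The 6 tumors and unknown depth limit the comparison, and 5 of the 22 genes that passed had a mean under 5 TPM. Those 22 genes kept their direction under every alternative that tested them (those 5 were not tested with a minimum of 5 TPM), and 21 of them passed after either rescaling. The numbers of genes that rose and fell, 10 and 12, became 0 and 2 with no minimum on TPM, where 28007 genes were tested and 3458 had an unadjusted p under 0.05 in limma. They became 9 and 19 with a pseudocount of 0.1, 10 and 20 with a minimum of 5 TPM, 4 and 8 with no mean-variance trend, and 57 and 202 in the fit of 72 tumors. Leaving out 1 tumor gave 0 to 34 higher and 0 to 111 lower genes. All 22 passed without NT tumor 2, but 0 of them without LEN tumor 2 or LEN tumor 4. The cause of these changes was not tested.

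The MVD gene score passed under every alternative, with differences from -1.11 (pseudocount of 0.1) to -0.615 (upper-quartile rescaling), and from -0.716 to -0.693 when 1 tumor was left out.

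Genes that differed from the other 11 models numbered 246, and 86 to 192 when 1 LL/2 tumor was left out, the fewest without LEN tumor 3. Genes that differed from KLN205 numbered 76, against 13 with a pseudocount of 0.1, 333 with no minimum, 38 with a minimum of 5 TPM, 291 after upper-quartile rescaling, 273 after rescaling over protein-coding genes, and 22 to 96 when 1 LL/2 tumor was left out, the fewest without LEN tumor 2. Of the genes given as differing above, 23 of 28 still passed against the other models after upper-quartile rescaling, 22 with a pseudocount of 0.1, 0 with the replicate block, and 12 to 20 when 1 LL/2 tumor was left out (16 without NT tumor 1, 17 without NT tumor 3, 16, 13 and 12 without LEN tumors 2, 3 and 4). Against KLN205 it was 12 of 12, 5, 1, and 5 to 12 (7 without NT tumor 1, NT tumor 2 or LEN tumor 3, 5 without LEN tumor 2). All tested kept their direction under every alternative.

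Replicate numbers 2 and 3 occur in both groups but belong to different mice, and same-numbered tumors did not deviate together (r = 0.037 and 0.011 over 15506 genes), so the numbers do not pair the tumors. With the replicate block, 0 genes rose and 0 fell in limma (1155 with an unadjusted p under 0.05), the MVD gene score changed by -0.703, still under 0.05, and 3 genes differed from the other models and 9 from KLN205.

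The change in Top2a, -0.06, turned to 0.0798 after upper-quartile rescaling, 0.0233 after rescaling over protein-coding genes, and 0.152 with the replicate block, and ranged from -0.301 without NT tumor 2 to 0.161 without NT tumor 1. The change in Foxa2, -0.02, turned to 0.0728 and 0.0316 after these rescalings and 0.0312 with the block, with a range from -0.131 without NT tumor 2 to 0.0525 without NT tumor 1. The change in Krt18, -0.0042, turned to 0.131 and 0.0746 after the rescalings, with a range from -0.109 without NT tumor 1 to 0.122 without NT tumor 2. The other genes tested in the 6 tumors and named above kept their direction.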
